A study of Mus musculus with 3 samples.

Results

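The septin genes of ST2 cells carried date names in the expression table, such as 7-Sep for Sept7 and 11-Sep for Sept11, because a spreadsheet had read the older gene symbols as days of September. Members were chosen by their names from a list of 10 such names, 1-Sep, 2-Sep and 4-Sep to 11-Sep, with the condition that the name stood on 1 row only with a value in all 3 libraries. Of the 10 names, 9 met it, which is 9 of 51826 rows in the table. The name 2-Sep stood on 2 rows and failed the condition. Its values are given separately. No row was spelled Sept or Septin followed by a number, so a search by the usual symbols would have returned no septin. The mouse annotation GENCODE M21 held 13 distinct names of this form, and the 13 date names in the table matched them by number.

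ST2 is a mouse bone marrow stromal cell line, kept with 10% FBS in DMEM per the labels, while the study's methods name α-MEM. All 3 groups received a plasmid and siRNA at 30 nM with lipofectamine 3000. The control cells received empty vector with control siRNA, the NELL2 overexpression cells the NELL2 construct with control siRNA, and the Fn1 knockdown cells empty vector with siRNA against Fn1, the gene of the matrix glycoprotein fibronectin. Polyadenylated RNA was sequenced as paired reads of 150 bases, with 1 library in each group, and the comparisons ask which transcripts differ from the control after each treatment. No difference given here has a replicate check, and no p-value was computed.

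Septins are GTP-binding proteins that assemble into hetero-oligomers and filaments. They scaffold other proteins at the cell cortex, along actin stress fibres, on some microtubules and at the cleavage furrow of dividing cells. By sequence they form groups named after SEPT2, SEPT6, SEPT7 and SEPT3. A filament takes subunits from different groups, and members of a group can take the same position in it.

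The 4 members of the SEPT6 group, which also holds Sept14, are shown first as sequences, because their proportions differed between the libraries and members of a group can take the same filament position. The stretch encodes most of the loop that binds the phosphates of the nucleotide, a conserved part of a septin. In each of the 13 annotated septins these 30 bases opened a coding exon. Exons were numbered in 1 GENCODE M21 transcript per gene, and letters are from the mouse genome GRCm38, 5′ to 3′ along the coding strand, and capitals mark bases unlike Sept11.

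Sept11: gtgagacaggtattggcaaatccacattga
Sept10: gGgagacTggAattggAaaatcAacaCtga
Sept8: gCgaAacTggGattggcaaGtccacGCtAa
Sept6: gGgagacaggtTtGggcaaGtccacGCtCa

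The Sept11 stretch lay in exon 3 at chr5:93148387-93148416 on the plus strand. The Sept10 stretch lay in exon 3 at chr10:59192332-59192361 on the minus strand and differed from that of Sept11 at 6 of 30 bases. The Sept8 stretch lay in exon 3 at chr11:53534433-53534462 on the plus strand and differed at 8 bases. The Sept6 stretch lay in exon 3 at chrX:36966762-36966791 on the minus strand and differed at 7 bases. Over the aligned coding sequence, pairs of these 4 genes were identical at 68.9% (Sept8 with Sept10) to 75.1% (Sept6 with Sept11) of bases. No run of 50 bases was shared by transcripts of any pair of differently named septins, so a read of 150 bases that matched 1 of them in full could not match another without a mismatch.

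Levels were FPKM, fragments scaled to transcript length and to the total of mapped fragments. Being per length, they allow a comparison between genes. That comparison is approximate, because the length taken for each gene is not known. Ratios to the control were taken as differences of log2(FPKM + 1). A gene was called at 2-fold when this difference was 1 or more in size and the gene reached 1 FPKM in either library, and a 1.5-fold rule was used beside it. The estimated depth was 23000000 to 24200000 fragments per library. Intervals in parentheses are 95% exact intervals for fragment numbers estimated from each gene's length and this depth. They are approximate and cover counting error only.

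The targeted genes moved as labelled. Nell2 stood at 0.640 FPKM in control cells, 326 in NELL2-overexpressing cells and 1.06 in Fn1 knockdown cells. Fn1 stood at 2802, 2489 and 137 FPKM in the same order. The 8 stromal markers summed to 5276 to 5958 FPKM per library and each was above 1 FPKM, whereas the defining marker of blood cells, Ptprc, was at most 0.063 FPKM, and Epcam and Rbfox3, of epithelium and neurons, were listed at 0. Other markers of these lists did reach 1 FPKM. Cd68, of macrophages, stood at 4.08, 3.54 and 1.57 FPKM in that order, and Tubb3, a tubulin of neurons, at 6.06, 5.96 and 11.7 FPKM. The summed blood cell markers were 4.67, 4.82 and 1.95 FPKM and the summed neuronal markers 6.17, 6.04 and 11.8 FPKM. Tubb3 alone made up nearly all of the neuronal sum, and the other neuronal markers were at most 0.058 FPKM. The part of these markers in the septin values was not tested.

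ST2 cells contained transcripts of 8 of the 9 septins at 1 FPKM or more in the control, over a wide range of levels. Sept7, the only member of its group and a core subunit of most septin filaments, was the highest at 89.4 FPKM. Sept9, of the SEPT3 group, which binds actin bundles and microtubules, stood at 75.3 FPKM, and Sept11 at 73.3 FPKM. A middle tier was made up of Sept8 at 29.2 FPKM, Sept5 at 27.3 FPKM and Sept10 at 17.5 FPKM. Sept6 at 4.93 FPKM and Sept1 at 1.38 FPKM were low, and Sept4, known for its part in the sperm tail, was lowest at 0.458 FPKM. The order of the 9 genes was the same in all 3 libraries. Some neighbours in that order did not differ beyond counting error. In the control, Sept9 (73.3 to 77.4) overlapped with Sept11 (70.7 to 76.0), and Sept8 (27.7 to 30.7) with Sept5 (25.7 to 29.0). In the Fn1 knockdown library, Sept7 (77.0 to 81.5) overlapped with Sept9 (76.5 to 80.6), and Sept1 (0.482 to 1.22) with Sept4 (0.178 to 0.638).

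**Figure D1:**
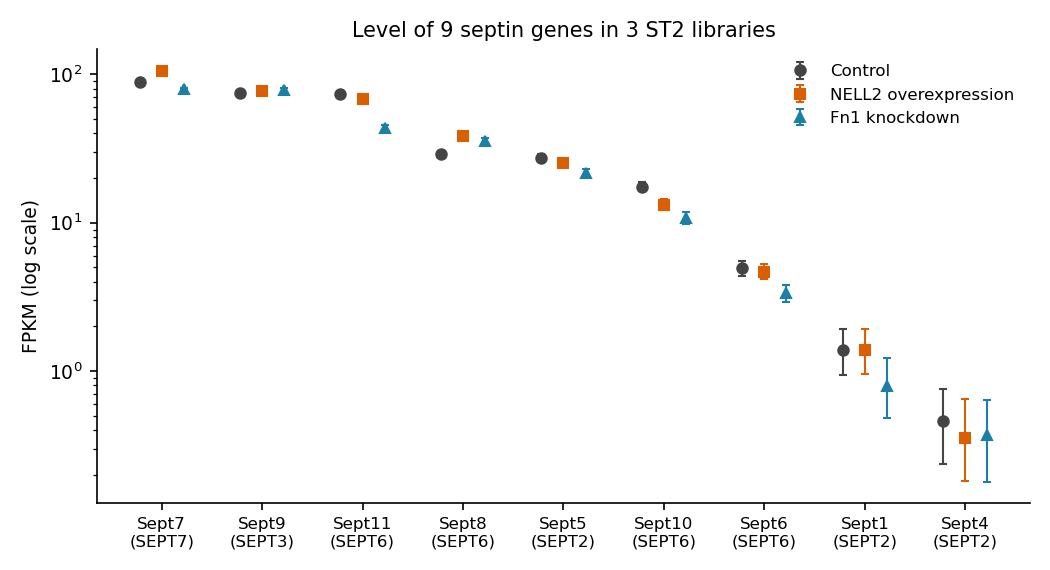
FPKM on a log axis for the 9 septin genes in the control (circles), NELL2 overexpression (squares) and Fn1 knockdown (triangles) library, with the septin group in parentheses and bars for the 95% counting interval. The genes keep 1 order from Sept7 to Sept4 in all libraries, and the Sept11 triangle at 43.7 FPKM lies apart from the circle at 73.3 FPKM.

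The remaining septin names were described from their own rows. The larger 2-Sep row stood at 124.1, 128.6 and 122.4 FPKM in the libraries of control, NELL2 overexpression and Fn1 knockdown cells, above every member. The smaller 2-Sep row stood at 13.7, 16.4 and 15.5 FPKM. GENCODE M21 has 2 genes named Sept2, and all 3335 exon bases of the shorter one lie within exons of the longer one, so fragments may have been divided between both. Which row belongs to which gene is not known. Sept3, a septin of neurons, stood at 2.11, 1.64 and 1.48 FPKM, and Sept12 and Sept14, septins of the testis, were listed at 0 in all 3 libraries.

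The first comparison asked which septins differed when NELL2, a secreted glycoprotein, was raised. At 2-fold, 0 of 8 members that reached 1 FPKM were called, where 0.652% of 12572 rows were. At 1.5-fold, 0 members were higher, where 1.54% of rows were, and 0 were lower, where 1.05% were. Among the 9 members, the untested Sept4 included, 4 were higher and 5 lower than the control, where 52.3% of rows tested were higher and 47.7% lower. The median log2 ratio was -0.06 over the 9 members and -0.030 over the 8 tested, beside 0.0072 over all rows tested. A treatment effect and the spread between cultures cannot be told apart with 1 library in each group.

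Sept8, which binds the vesicle protein VAMP2 in neurons, and its group member Sept10 had the log2 ratios furthest from 0 among the members in this comparison, 0.38 and -0.38. Which of them lay further depended on the pseudocount and scaling. Sept8 stood at 29.2 FPKM in control cells, 38.2 in NELL2-overexpressing cells and 35.8 in Fn1 knockdown cells, so both treated libraries were above the control. With NELL2 overexpression its log2 ratio was 0.38 and its level 131% of the control (123 to 140), and 6.98% of all rows tested lay at least as far from 0. Sept10 stood at 17.5, 13.3 and 10.8 FPKM in the same order and was lowest in the Fn1 knockdown library. Its log2 ratio with NELL2 overexpression was -0.38, at 75.8% of the control (67.9 to 84.7).

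Sept7 stood at 89.4 FPKM in control cells, 104.7 in NELL2-overexpressing cells and 79.2 in Fn1 knockdown cells. The control lay between the treated libraries, with log2 ratios of 0.23 and -0.17. The level was 117% of the control (113 to 122) with NELL2 overexpression and 88.6% (85.2 to 92.2) with Fn1 knockdown. Both counting intervals left out 100%, although neither ratio reached 1.5-fold. Sept9 was the steadiest member at 75.3, 76.8 and 78.5 FPKM, a 1.04-fold range over the libraries. Its log2 ratios were 0.03 with NELL2 overexpression and 0.06 with Fn1 knockdown.

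The second comparison asked which septins differed when Fn1 was lowered. Again 0 of 8 members were called at 2-fold, where 1.23% of 12574 rows were. At 1.5-fold, 2 members were lower, Sept11 and Sept10, where 3.32% of rows were, and 0 were higher, where 2.92% were. The member just inside the 1.5-fold rule was Sept10, with a log2 ratio of -0.66, and the one just outside was Sept6, with -0.44. The pseudocount changed which members were called. With 5 FPKM added in place of 1, Sept10 was at -0.51 and only Sept11 was called, and with 0.1 FPKM added Sept1 was called as well, at -0.74. Among all 9 members, 7 were lower and 2 higher than the control, where 50.5% of rows tested were lower. The median log2 ratio was -0.32 over the 9 members and -0.37 over the 8 tested, beside -0.0028 over all rows tested. In a bulk sample, fewer cells of a type and less RNA per cell cannot be told apart.

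**Figure D2:**
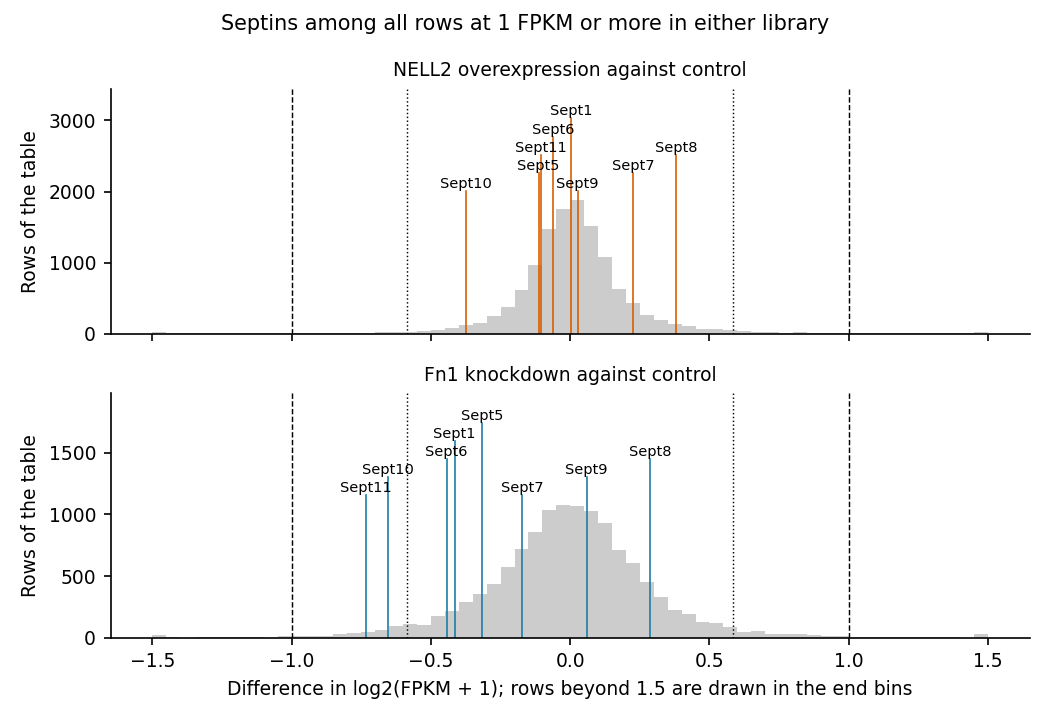
Number of rows of the table by their difference from the control in log2(FPKM + 1), for NELL2 overexpression (top) and Fn1 knockdown (bottom), with each of the 8 septins at 1 FPKM or more as a coloured line. Dotted and dashed lines mark 1.5-fold and 2-fold, and only Sept10 and Sept11 with Fn1 knockdown lie past a dotted line, at -0.66 and -0.73.

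Sept11 had the log2(FPKM + 1) ratio furthest from 0 among the members, although Sept1 was lower as a percentage of the control. It stood at 73.3 FPKM in control cells, 68.1 in NELL2-overexpressing cells and 43.7 in Fn1 knockdown cells, so it was lowest in the Fn1 knockdown library. The log2 ratio with Fn1 knockdown was -0.73, and the level was 59.6% of the control (56.2 to 63.1), from 3022 estimated fragments in the control and 1895 in the Fn1 knockdown library. With the longest coding transcript in place of the median length, the estimates were 8478 and 5318 fragments and the interval 57.6 to 61.7. Of all rows tested, 3.40% lay at least as far from 0. With NELL2 overexpression Sept11 was at 93.0% of the control (88.3 to 97.8), a log2 ratio of -0.10. The gene lies at chr5:93093437-93176447 on the plus strand of GRCm38, and 0.434% of the 50-base runs of its transcripts occur in another gene.

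Sept10 fell with Fn1 knockdown under the 1.5-fold rule with 1 FPKM added, from 17.5 to 10.8 FPKM, or 61.4% of the control (54.6 to 69.1), with 4.62% of all rows at least as far from 0. Its gene lies at chr10:59141627-59221847 on the minus strand, and its transcripts shared no run of 50 bases with another gene. Sept6, which forms a well-studied complex with SEPT2 and SEPT7, stood at 4.93, 4.68 and 3.36 FPKM and was lowest in the Fn1 knockdown library. It was at 68.2% of the control there (56.9 to 81.4), and at 94.9% (80.7 to 112) with NELL2 overexpression. Sept8 differed in direction from the other genes of its group with Fn1 knockdown, at 123% of the control (115 to 131) and a log2 ratio of 0.29.

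**Figure D3:**
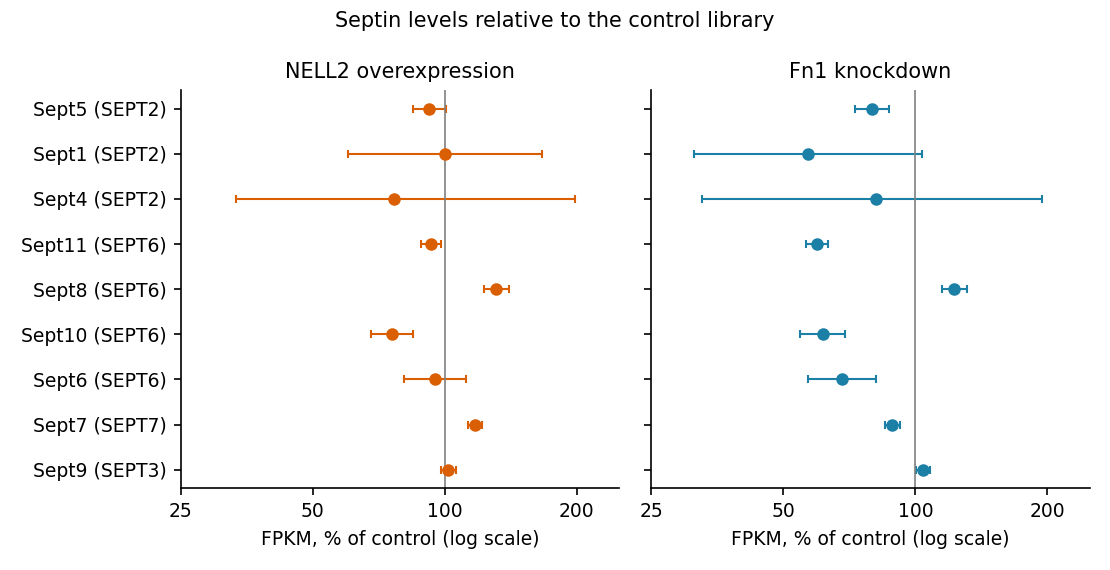
FPKM as a percentage of the control on a log axis for the 9 septins, ordered by group, with NELL2 overexpression on the left and Fn1 knockdown on the right and bars for the 95% counting interval. On the right, Sept11, Sept10 and Sept6 lie at 59.6%, 61.4% and 68.2%, whereas Sept8 of the same group lies at 123%.

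The genes of the SEPT6 group stood in different proportions in the 3 libraries. Their summed level was 124.9 FPKM in control cells, 124.3 in NELL2-overexpressing cells and 93.6 in Fn1 knockdown cells, or 99.5% and 75.0% of the control. Sept11 made up 58.7% of that sum in the control, 54.8% with NELL2 overexpression and 46.7% with Fn1 knockdown. Sept8 made up 23.3%, 30.7% and 38.2% in the same order. The Sept11 level was 2.51 times that of Sept8 in the control, 1.78 times with NELL2 overexpression and 1.22 times with Fn1 knockdown. The ratio of Sept8 to Sept10 was 1.67, 2.88 and 3.33. Both ratios lay furthest from the control in the Fn1 knockdown library. Sept10 made up 14.0%, 10.7% and 11.5% of the sum, and Sept6 3.95%, 3.76% and 3.59%. The control library is shared by both comparisons, so they are not independent.

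**Figure D4:**
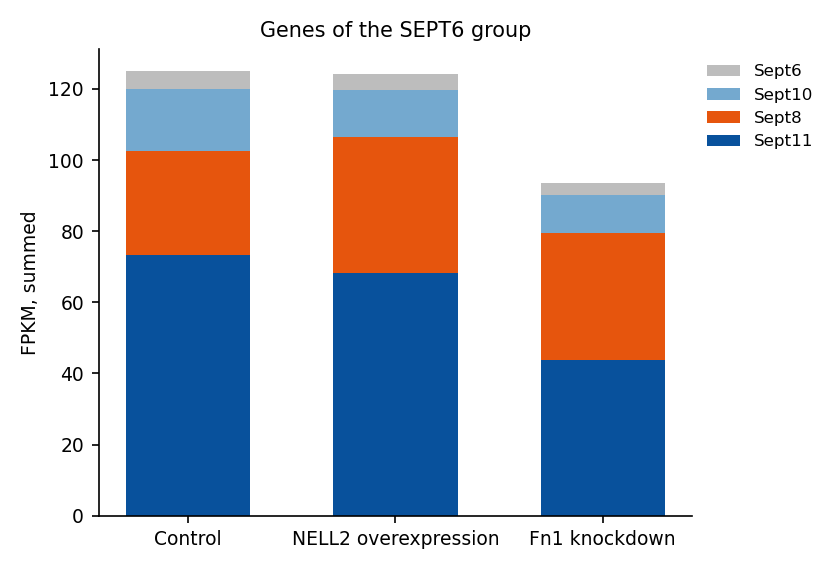
Summed FPKM of the SEPT6 group genes as stacked bars in the 3 libraries. The bars reach 124.9, 124.3 and 93.6 FPKM, and the Sept11 part is 73.3, 68.1 and 43.7 FPKM while the Sept8 part is 29.2, 38.2 and 35.8 FPKM.

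The 3 members of the SEPT2 group were Sept5, Sept1 and Sept4. Sept5, a septin of nerve terminals and platelets that binds syntaxin, stood at 27.3 FPKM in control cells, 25.2 in NELL2-overexpressing cells and 21.7 in Fn1 knockdown cells. It was lowest in the Fn1 knockdown library, at 79.6% of the control (72.8 to 87.0). Its gene at chr16:18620502-18629954 on the minus strand shares 56.3% of its exon bases with Gm49601, a protein-coding gene model on the same strand that was not analysed here, and 48.6% with Gp1bb, a platelet glycoprotein gene on the same strand, which stood at 1.20, 1.18 and 0.960 FPKM. Of the 50-base runs in Sept5 transcripts, 81.4% also occur in another gene, so the Sept5 level is uncertain. Sept1 stood at 1.38, 1.39 and 0.787 FPKM, from 33, 34 and 20 estimated fragments. Its level with Fn1 knockdown was 56.9% of the control, and whether its interval left out 100% depended on the transcript length taken. The interval included 100% at the median length (31.3 to 103) and not at the longest (34.1 to 92.3). Sept4 stood at 0.458, 0.352 and 0.372 FPKM, under 1 FPKM in every library, from 13, 11 and 11 estimated fragments, and was not tested.

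With both 2-Sep rows included, the 10 septin names summed to 456.6 FPKM in control cells, 477.7 in NELL2-overexpressing cells and 412.1 in Fn1 knockdown cells, or 105% and 90.3% of the control. The SEPT2 group held 36.6%, 36.0% and 39.0% of these sums and the SEPT6 group 27.4%, 26.0% and 22.7%. The SEPT7 group, which is Sept7 alone, held 19.6%, 21.9% and 19.2%, and the SEPT3 group, here Sept9 alone, 16.5%, 16.1% and 19.1%. The SEPT6 group had its lowest share, and the SEPT3 group its highest, in the Fn1 knockdown library. For the 9 members alone the sums were 318.8, 332.7 and 274.3 FPKM, or 104% and 86.0% of the control. The directions of the SEPT2 and SEPT7 shares with Fn1 knockdown turned with the 2-Sep rows. Without these rows the SEPT2 share was 9.14% in the control and 8.35% with Fn1 knockdown, and the SEPT7 share 28.0% and 28.9%. The summed SEPT2 level with Fn1 knockdown was 96.3% of the control with these rows and 78.6% without them. With NELL2 overexpression the SEPT2 sum was 103% of the control with these rows and 92.3% without them, so its direction turned as well.

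Genes that act with septins were described from 3 lists, which were chosen with earlier results of these data known. Septins take part in cytokinesis, and with Fn1 knockdown 10 of 10 cytokinesis genes were lower than the control, with a median log2 ratio of -0.49, beside -0.0028 over all rows tested, of which 50.5% were lower. Under the 1.5-fold rule 4 of the 10 fell, where 3.32% of all rows did. Prc1, which bundles microtubules of the central spindle, fell from 35.5 to 15.2 FPKM (log2 ratio -1.18). Plk1, a mitotic kinase, fell from 40.2 to 19.1 FPKM (-1.04), and these were the 2 called at 2-fold, where 1.23% of all rows were. Kif23, a kinesin of the central spindle, fell from 22.7 to 12.2 FPKM (-0.84). Anln, which encodes anillin, a protein that binds septins at the cleavage furrow, fell from 31.6 to 19.2 FPKM (-0.69). With NELL2 overexpression 2 of the 10 were higher and 8 lower, with a median of -0.15, beside 52.3% of all rows higher and 47.7% lower. At 1.5-fold 0 of the 10 were called, where 1.54% of all rows were higher and 1.05% lower. The part of cell division in the Sept11 and Sept10 values was not tested.

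The BORG proteins bind the GTPase Cdc42 and septins, and 5 of 6 genes of that list were analysed. Cdc42 itself stood at 258, 254 and 232 FPKM in the libraries of control, NELL2 overexpression and Fn1 knockdown cells. The median log2 ratio of the list was -0.11 with NELL2 overexpression and -0.16 with Fn1 knockdown, and 0 genes were called at 1.5-fold in either. With between 1.05% and 3.32% of all rows called in each direction, 0 of 5 genes does not set the list apart. The list of actomyosin and microtubule partners had 6 of 7 genes at 1 FPKM or more, with medians of -0.09 and 0.011. With NELL2 overexpression 2 of them were higher and 4 lower, and with Fn1 knockdown 3 were higher and 3 lower. Here too 0 were called at 1.5-fold, and 0 of 6 does not set the list apart beside those shares. Map4, a microtubule-associated protein, had the ratio furthest from 0 in that list with NELL2 overexpression, and stood at 77.4, 55.4 and 61.5 FPKM. Myh9, which encodes a heavy chain of non-muscle myosin, stood at 312, 282 and 312 FPKM.

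**Figure D5:**
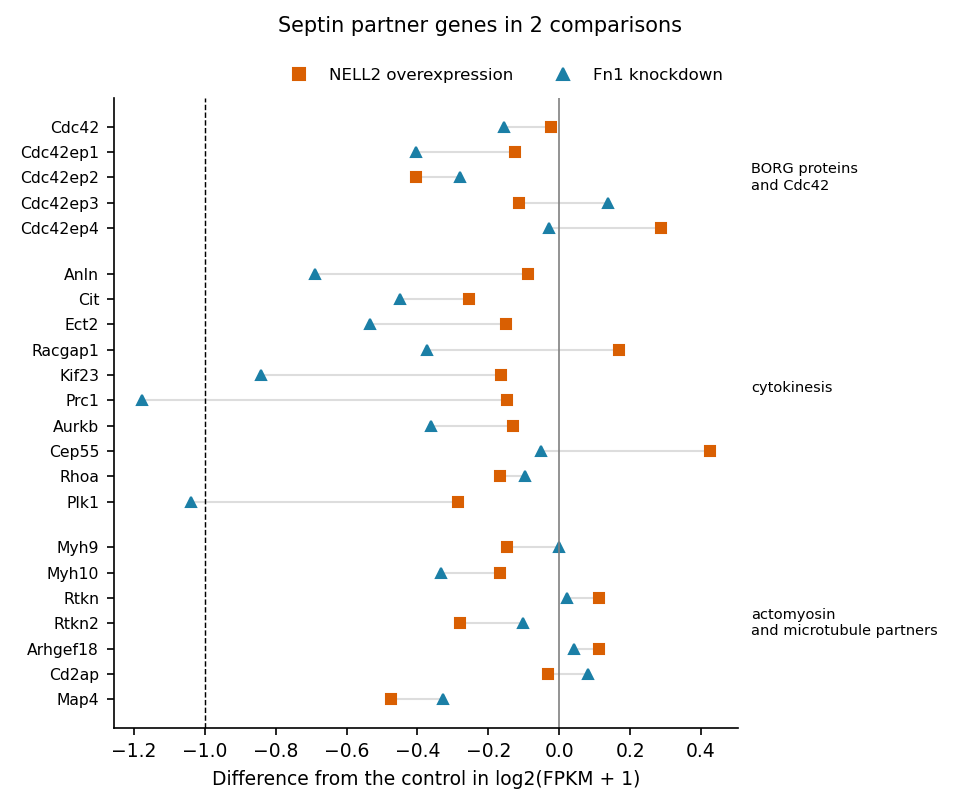
Difference from the control in log2(FPKM + 1) for the septin partner genes by list, with NELL2 overexpression as squares and Fn1 knockdown as triangles. Every triangle of the cytokinesis list lies below 0, and those of Prc1 at -1.18 and Plk1 at -1.04 lie past the dashed line at a 2-fold decrease.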

How the data were processed

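The authors deposited FPKM values per gene for 3 libraries. The submitters' processing notes name HISAT2, DESeq and the build GRCm38. The software behind the FPKM values, the annotation and the strand setting are not given in the sources used here. The table held 0 other columns of per-sample values. The rule for septins and the gene lists were chosen with earlier results of these data known.

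Date names were mapped to septins by number, and genes to GENCODE M21. Ratios were differences of log2(FPKM + 1), which understate the change of low genes. Rows that reached 1 FPKM in either library were set against the 2-fold and 1.5-fold rules. Depth was estimated from the worth of 1 fragment in low FPKM values of single-transcript genes of 600 bases or more, and fragments per gene from the median length of its coding transcripts. Whole reads were not recovered. Counting intervals were exact Poisson intervals for levels and exact binomial intervals for ratios. The calling was run on simulated data, with 200 of 200 changed rows called in the right direction. That run is no check of the septin ratios, and calling under the spread between cultures was not tested.

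Genes named were the septins, Nell2, Fn1, the partner lists, cell type markers, genes whose exons overlap a septin, and the 3 rows at 10 FPKM or more in the control with the smallest root mean square difference from the most abundant member and from the member with the largest ratio in each comparison. Alternatives covered the pseudocount, filter, threshold, scaling and transcript length. Python 3.11.15, pandas 2.3.3, NumPy 2.4.6, SciPy 1.17.1, Biopython 1.88 and matplotlib 3.10.9 were used.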

Additional observations from a re-analysis of the deposited data

How the results depend on the processing

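No paired analysis was possible because there was only 1 library per group, which also meant that no library could be left out. The 18 log2 ratios of septins were recomputed under 4 alternatives each, 72 in all, and none crossed the 2-fold threshold. Of these, 71 kept their sign, and Sept1 with NELL2 overexpression changed from 0.0031 to -0.0026 under median-of-ratios scaling. A change of pseudocount cannot change a sign. The median-of-ratios factors were 0.998, 1.004 and 0.998 in the libraries of control, NELL2 overexpression and Fn1 knockdown cells. Few signs could therefore change, and the count of kept signs is no check of direction. The largest ratio reached 0.74 in size. The number of septins called with Fn1 knockdown went from 0 to 2 at 1.5-fold and was 0 under the other alternatives. At 1.5-fold, where alternatives were chosen after seeing the data, the 2 became 3 with a pseudocount of 0.1 (Sept1 added, -0.74) and 1 with a pseudocount of 5 (Sept10 lost, -0.51), and stayed at 2 under other filters and scalings. With NELL2 overexpression 0 were called at 1.5-fold throughout, and Sept8 and Sept10 were at 0.39 and -0.40 with a pseudocount of 0.1, 0.34 and -0.30 with 5, 0.39 and -0.39 as TPM, and 0.37 and -0.38 after median-of-ratios scaling. Over all rows, the 82 called with NELL2 overexpression became 178 and 26 with a pseudocount of 0.1 and 5, 325 and 16 at 1.5-fold and 4-fold, 47 at 5 FPKM or more, and 210 when rescaled to TPM. The 155 called with Fn1 knockdown became 358 and 50, 784 and 22, and 343 under the same pseudocounts, thresholds and rescaling. TPM values are larger than FPKM here, so a pseudocount of 1 weighs less by construction.

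The Fn1 knockdown sum over septins, 0.903 of the control, was 0.860 without Sept2, which is also the value over the 9 names on 1 row, an alternative chosen after seeing the data. Without Sept2 the shares in the libraries of control, NELL2 overexpression and Fn1 knockdown cells were 9.14%, 8.09% and 8.35% for the SEPT2 group, 23.6%, 23.1% and 28.6% for SEPT3, 39.2%, 37.4% and 34.1% for SEPT6, and 28.0%, 31.5% and 28.9% for SEPT7. With the longest coding transcript, 20 of 27 estimated fragment numbers moved, Sept11 in the control from 3022 to 8478, so the counting intervals depend on the length taken. Those of Sept1 with Fn1 knockdown (34.1% to 92.3% of the control) and Sept5 with NELL2 overexpression (86.9% to 97.8%) then left out 100%, an alternative chosen after seeing the data. Depth limits Sept1 and Sept4, and the spread between cultures was not measured for any gene.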

Other observations

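For 3 septins, the genes most like them in level and pattern were found among 6149 rows at 10 FPKM or more in the control, by the root mean square difference of log2(FPKM + 1) over the 3 libraries. Nearest to Sept7 were Arl6ip1, at 86.5, 97.4 and 82.9 FPKM in the libraries of control, NELL2 overexpression and Fn1 knockdown cells (difference 0.075), Capg (0.094) and U2af2 (0.0996). Nearest to Sept8 were Pnpt1, at 29.2, 35.5 and 34.8 FPKM (0.065), Dlg1 (0.077) and Bloc1s1 (0.082). Nearest to Sept11 was Hmgn2, which encodes a nucleosome-binding protein, at 66.3, 71.7 and 44.3 FPKM (0.093), followed by Bnip2 (0.117) and Abce1 (0.132). The measure uses 3 libraries only and takes in the level as well as the pattern.

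Among the markers of other cell types, the summed endothelial markers were at most 0.930 FPKM and the epithelial ones at most 0.062 FPKM.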
